A study of Homo sapiens with 5 samples.

Results

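The contacts described here are those between different chromosomes (trans contacts) among chromosomes 1, 2, 3, 4 and 5, the 5 largest human chromosomes. They were measured by in situ Hi-C, in which DNA ends that are neighbours in the fixed nucleus are ligated and the ligated pairs sequenced, in RMG1, a human cell line derived from a clear cell carcinoma of the ovary. The members are all pairs of 1 Mb bins (hg19) whose 2 bins lie on 2 different chromosomes of these 5. They number 411687 of the 3656900 trans bin pairs of chromosomes 1 to 22 and X that could be used, which is 11.3%, and they fall into 10 chromosome pairs. The control is 1 library of cells with a control hairpin RNA, wild type for ARID1A and CAPH2. The ARID1A knockout (KO) has 2 libraries of cells edited by CRISPR, with wild type CAPH2. The CAPH2 knockdown (KD) has 2 libraries of cells with a hairpin RNA against CAPH2 and wild type ARID1A. The labels do not say whether the replicates are separate cultures or whether the KO libraries come from 1 clone or 2, so p-values reflect the spread among the libraries alone, and that spread may be technical. Control and KD both carry a hairpin RNA, whereas the KO was made by another method.

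In interphase each chromosome keeps to its own territory, and large, gene-poor chromosomes are known to lie towards the edge of the nucleus. Trans contacts arise where territories touch, where active (A) or inactive (B) chromatin of different chromosomes comes together, and where centromeres or chromosome ends gather. They also arise where the DNA of 2 chromosomes has been joined by a rearrangement, which gives a block of very high contact with sharp edges in a Hi-C map. CAPH2 (current symbol NCAPH2) belongs to condensin II, which folds and compacts chromosomes and is known to hold territories and centromeres apart. ARID1A is part of BAF, a complex that slides and evicts nucleosomes and binds DNA through this subunit, and its gene lies on the short arm of chromosome 1.

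The members held 1.42 M contacts in the control (M, mega; contacts before balancing, recovered from the balanced signal), 0.865 M and 0.832 M in the KO libraries and 1.75 M and 2.64 M in the KD libraries. That is 3.44 contacts per bin pair in the control, 2.10 and 2.02 in the KO and 4.26 and 6.40 in the KD. No contact was seen in 8.89% of the member bin pairs in the control, in 20.4% and 22.3% in the KO and in 5.97% and 2.27% in the KD, so values of single bin pairs are least certain in the KO. The members took 11.8% of the trans signal in the control, 11.9% and 11.5% in the KO and 11.7% in both KD libraries. Both pairs of replicates differed by more than sampling noise. Chi-square per degree of freedom was 1.10 between the KD libraries and 4.85 between the KO libraries over 39286 trans block pairs of 10 Mb, and 3.26 and 57.6 over the trans totals of 2779 bins. ARID1A KO replicate 1 stood apart most clearly at the join of chromosomes 1 and 5 described next, so both KO values are given throughout.

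Trans contacts among the large chromosomes held 3 places with more than 80 times the trans expectation in the control. A strong bin pair was one with over 20 times the signal expected from the trans totals of its bins and at least 20 contacts in any library. There were 332 strong bin pairs in all trans pairs and 100 among the members. Linked within 10 Mb, the 100 formed 3 groups of at least 3 bin pairs and 1 lone bin pair. These 3 groups, called joins here for their shape in the map, lay between chromosomes 1 and 5, 2 and 3, and 3 and 4. The whole genome held 21 such groups, in 18 chromosome pairs. The deposited matrices show contact and not sequence, so whether a join is a rearrangement was not tested.

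The join of chromosomes 3 and 4 held the strongest member bin pair of every library, chr3:176000001-177000000 with chr4:110000001-111000000. Contact there was 141 times the trans expectation in the control, 156 and 154 times in the KO and 146 and 143 times in the KD. The contacts behind these folds were 1038 in the control (exact Poisson 95% interval 976 to 1103, counting error only), 715 and 675 in the KO, and 1233 and 1825 in the KD. All 5 libraries showed it, at folds that differed little. From this corner the signal spread over 1 quadrant, chromosome 3 below the join with chromosome 4 above it. At 1 to 10 Mb from the corner on both chromosomes that quadrant stood at 8.95-fold in the control, 8.14-fold and 8.95-fold in the KO, and 8.24-fold and 8.21-fold in the KD. At 41 to 80 Mb it had come down to 1.34-fold in the control and 1.13-fold to 1.35-fold in the others. The 3 remaining quadrants lay between 0.71-fold and 1.06-fold at 1 to 10 Mb in all libraries. The lone strong bin pair, chr3:147000001-148000000 with chr4:116000001-117000000, lay inside the same quadrant and passed the threshold in KO replicate 1 alone, on 22 contacts.

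The join of chromosomes 2 and 3 was the largest, with 83 strong bin pairs, and it filled 2 opposite quadrants. Its corner, chr2:114000001-115000000 with chr3:168000001-169000000, stood at 81.1-fold in the control, 84.7-fold and 87.7-fold in the KO and 91.7-fold and 91.1-fold in the KD. Chromosome 2 above the join with chromosome 3 below it stood at 15.8-fold in the control at 1 to 10 Mb, at 16.1-fold and 15.7-fold in the KO and at 14.1-fold and 14.4-fold in the KD. Chromosome 2 below the join with chromosome 3 above it stood at 8.57-fold, at 8.34-fold and 8.24-fold, and at 7.15-fold and 7.18-fold. The 2 other quadrants lay below expectation, between 0.63-fold and 0.84-fold in all libraries. Both KO libraries were close to the control here and both KD libraries were lower in the 2 strong quadrants at this distance; the block pair that holds the corner did not pass the test in any comparison (log2 2.89 in the control, 2.95 and 2.88 in the KO, 2.81 and 2.82 in the KD; limma adjusted p from 0.611 to 0.976).

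The join of chromosomes 1 and 5 was present in 4 libraries and nearly missing from ARID1A KO replicate 1. At its corner, chr1:26000001-27000000 with chr5:56000001-57000000, the control had 525 contacts (exact Poisson 95% interval 481 to 572), KO replicate 2 had 419 (380 to 461), and the KD libraries had 561 (516 to 609) and 799 (745 to 856). KO replicate 1 had 11 (5.49 to 19.7). Against the expectation of each library this was 91.7-fold in the control, 83.7-fold in KO replicate 2, 92.8-fold and 82.9-fold in the KD, and 6.88-fold in KO replicate 1. The 4 libraries with the join do not overlap with the fifth. The quadrant of chromosome 1 below the join with chromosome 5 above it showed the same split. At 1 to 10 Mb it stood at 3.71-fold in the control, 3.14-fold in KO replicate 2, 2.73-fold and 2.71-fold in the KD and 0.85-fold in KO replicate 1. At 11 to 20 Mb the values were 3.99-fold, 2.59-fold, 3.55-fold, 3.53-fold and, in KO replicate 1, 1.22-fold. Chromosome 1 below the join with chromosome 5 below it was raised less, at 1.85-fold in the control, 1.68-fold in KO replicate 2, 1.77-fold and 1.62-fold in the KD and 0.78-fold in KO replicate 1 at 1 to 10 Mb. Since the KO libraries differ so much, the fit over groups passed no test at the block pair of this corner (log2 1.72 in the control, -0.93 and 1.59 in the KO; difference -1.38, SE 0.89, limma adjusted p = 0.807).

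**Figure D1:**
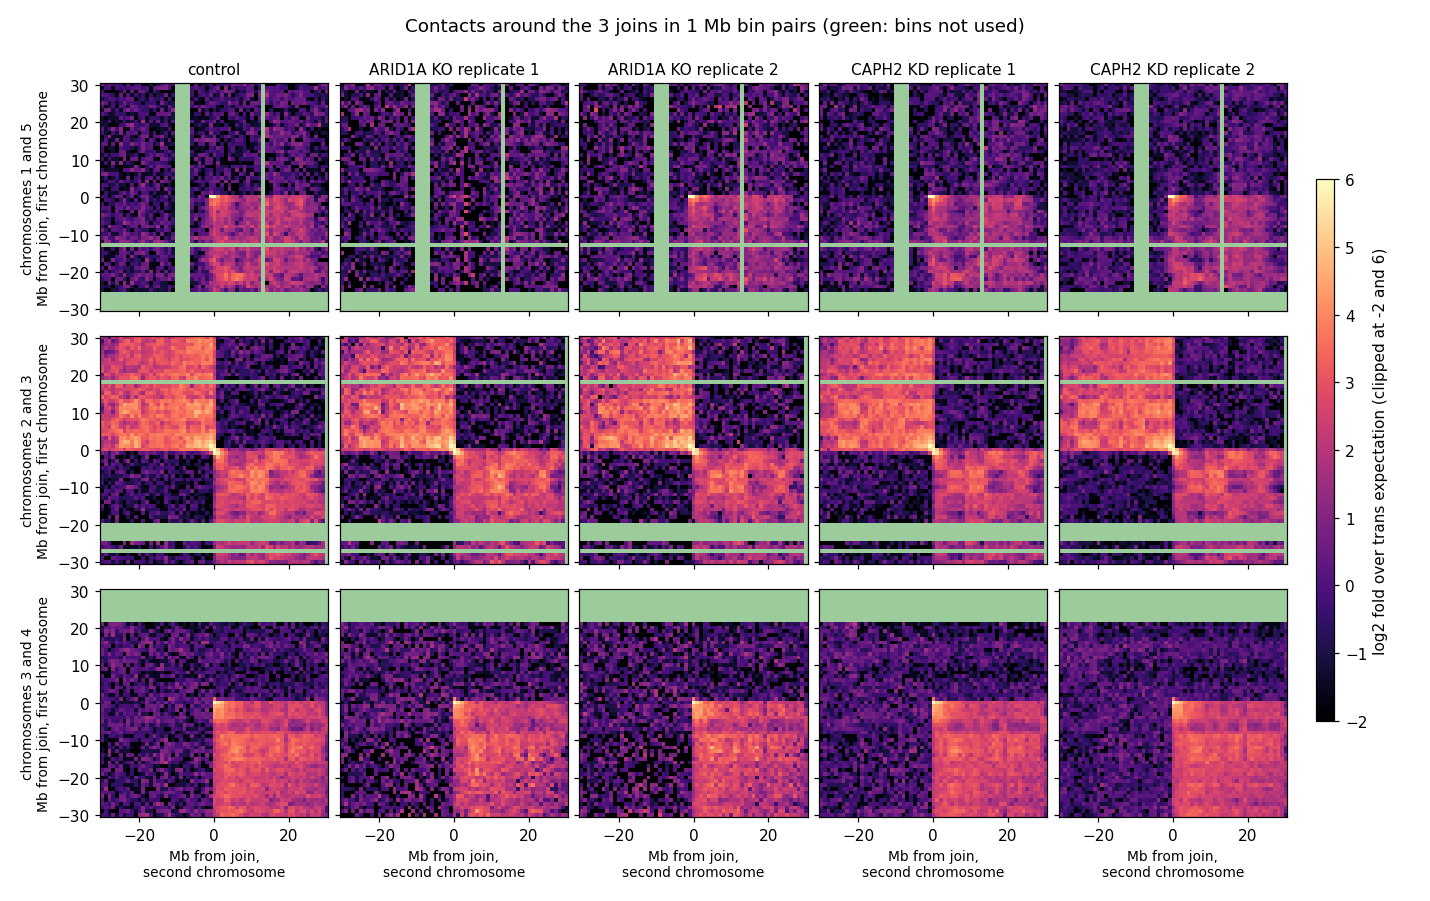
Contacts around the 3 joins in each library, as log2 fold over the trans expectation for pairs of 1 Mb bins (colour, clipped at -2 and 6), by distance in Mb from the corner bin on the first chromosome of the pair (vertical axis) and the second (horizontal axis). The bright quadrants of chromosomes 2 and 3 and of chromosomes 3 and 4 appear in all 5 libraries, and that of chromosomes 1 and 5 appears in 4 and is missing from ARID1A KO replicate 1.

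The number of contacts per bin changed at several joins, and on chromosomes 1 and 5 it differed between the KO libraries. Each bin's recovered contacts (without those inside the bin) were divided by the median of the library's bins. The value of a 10 Mb stretch is the median of its bins. On chromosome 1 the 10 Mb below the join stood at 0.9298 in the control and the 10 Mb above it at 0.841. In KO replicate 2 these were 1.58 and 1.13, and in the KD 0.871 and 0.793, and 0.916 and 0.822. In KO replicate 1 the order was turned, at 1.13 below and 1.16 above. On chromosome 5 the 10 Mb above the join stood at 0.532 in KO replicate 1, against 1.02 in the control, 1.02 in KO replicate 2 and 0.996 and 1.01 in the KD. The 10 Mb below it ranged from 0.961 to 1.06 over the 5 libraries. Chromosome 3 was high between its joins at 168 and 176 Mb in all libraries: the 10 Mb above the first stood at 1.58 in the control, 1.497 and 1.303 in the KO and 1.59 in both KD libraries, against 1.04, 0.807 and 0.820, and 1.08 and 1.05 in the 10 Mb below it. Chromosome 4 stepped as well, from 0.996 below its join to 1.53 above it in the control, from 0.884 to 1.31 and from 0.838 to 1.24 in the KO, and from 1.04 to 1.58 and from 1.02 to 1.55 in the KD. These contacts per bin follow the number of copies of a region as well as how well it can be mapped and cut, and their part in the loss of the join in KO replicate 1 was not tested.

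**Figure D2:**
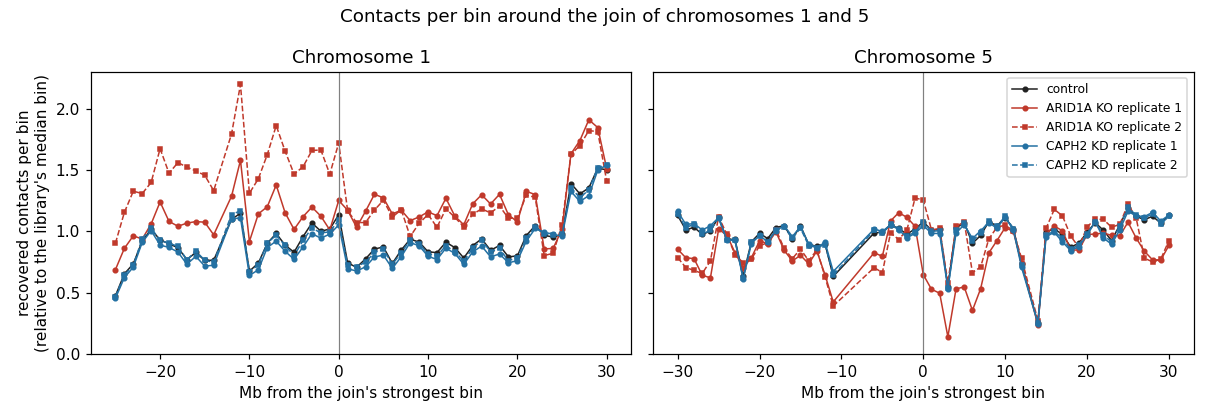
Recovered contacts per 1 Mb bin, relative to the library's median bin (vertical axis, from 0), by distance in Mb from the strongest bin of the join of chromosomes 1 and 5 (horizontal axis), for each library. On chromosome 5 the 10 Mb above the join stand at 0.532 in ARID1A KO replicate 1 and from 0.996 to 1.02 in the 4 libraries that hold the join.

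Chromosomes 2 and 4 are both joined to chromosome 3, and their own contacts showed no join. Within 20 Mb of the 2 join positions (114 Mb on chromosome 2 and 110 Mb on chromosome 4) all 4 quadrants lay between 0.68-fold and 0.98-fold in every library. Out to the chromosome ends, chromosome 2 above its join with chromosome 4 above its join was the highest quadrant, at 1.13-fold in the control, 1.09-fold and 1.11-fold in the KO and 1.19-fold in both KD libraries.

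The level of each chromosome pair was taken as log2 of its signal over that expected from the chromosomes' total signal without the diagonal (contacts inside a bin), so contacts within a chromosome count in the total and nearly all trans pairs lie below 0. Chromosomes 2 and 3 had the highest level, at -0.50 in the control, -0.54 and -0.56 in the KO and -0.45 in both KD libraries. Chromosomes 3 and 4 followed at -0.88 in the control, -0.92 and -0.95 in the KO and -0.80 and -0.81 in the KD. In both pairs the KO libraries lay below the control and the KD libraries above it, with no overlap. On these totals both KD libraries exceeded the control in 97.2% of all chromosome pairs. With totals from trans signal alone, both KO libraries stayed below the control in both pairs. The KD libraries then lay below the control in 2 and 3 (0.713 in the control, 0.700 and 0.703 in the KD). In 3 and 4 they lay just above it (0.358 in the control, 0.364 and 0.360 in the KD). Chromosomes 1 and 5 came next at -1.17 in the control, -1.33 in KO replicate 1, -1.16 in KO replicate 2 and -1.12 and -1.11 in the KD. KO replicate 1 lay below the 4 other libraries there. The other 7 pairs lay between -1.44 and -1.28 in the control, below the median of all chromosome pairs, which was -1.17.

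Those 7 pairs had no join in any library. Chromosomes 1 and 4 were at -1.28 in the control, -1.25 and -1.23 in the KO and -1.21 in both KD libraries. Chromosomes 1 and 2 were at -1.31, at -1.27 and -1.26 in the KO, and at -1.26 and -1.25 in the KD. Chromosomes 4 and 5 were at -1.39, at -1.40 and -1.36 in the KO, and at -1.29 and -1.28 in the KD. In chromosomes 1 and 4 and chromosomes 1 and 2 all treated libraries lay above the control, and in chromosomes 4 and 5 the KO libraries lay on both sides of it. Chromosomes 2 and 4 were at -1.39, at -1.37 and -1.38 in the KO, and at -1.30 in both KD libraries. Chromosomes 1 and 3 were at -1.40, at -1.36 in both KO libraries, and at -1.32 in both KD libraries. In each of these 2 pairs the 3 groups do not overlap and stand in the order control, KO, KD. Chromosomes 3 and 5 were at -1.43, at -1.43 and -1.40 in the KO, and at -1.33 in both KD libraries. Chromosomes 2 and 5 were at -1.44, the lowest pair in the control and the KD though not in the KO, with -1.42 and -1.38 in the KO and -1.34 and -1.35 in the KD. Some neighbours in this order overlap in the KO, such as 3 and 5 (SD 0.0262) with 2 and 5 (SD 0.0263, n = 2 each). Others do not, such as 1 and 3 (SD 0.00157) with 2 and 4 (SD 0.00729).

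The quadrants at the joins held more of their chromosome pairs' signal than their share of bin pairs, except that of chromosomes 1 and 5 in KO replicate 1, where the shares were close. Quadrants over 2-fold in the control at both 1 to 10 and 11 to 20 Mb were left out whole, with a margin of 2 Mb, which removed 4 quadrants and kept 89.5% of the member bin pairs. As they were chosen for high signal in the control, their larger share of signal there follows in part from that choice. For chromosomes 2 and 3 the 2 quadrants held 22.01% and 53.4% of the pair's signal in the control, on 7.72% and 47.5% of its bin pairs. For chromosomes 3 and 4 the quadrant held 58.6% of the signal on 39.8% of the bin pairs. For chromosomes 1 and 5 it held 19.6% in the control, 17.9% in KO replicate 2, 17.5% and 17.2% in the KD and 9.36% in KO replicate 1, on 8.75% of the bin pairs. Without these quadrants chromosomes 2 and 3 came to -1.30 in the control, -1.30 and -1.23 in the KO and -1.20 and -1.19 in the KD. Chromosomes 3 and 4 came to -1.39, to -1.38 and -1.36, and to -1.27 and -1.28. Chromosomes 1 and 5 came to -1.36, to -1.35 and -1.32, and to -1.28 and -1.27. Chromosomes 3 and 4 and chromosomes 1 and 5 then lay among the other 7 in every library, and KO replicate 1 no longer stood apart at 1 and 5. Chromosomes 2 and 3 lay among them in the control and the KO, and just above the highest of them, 1 and 4, in both KD libraries. That place depends on the totals. With totals from trans signal alone, chromosomes 2 and 3 came to -0.20 in the control, -0.19 and -0.17 in the KO and -0.17 and -0.16 in the KD. Chromosomes 1 and 4 then stood at 0.02 to 0.06, and the pairs of chromosome 3 were the lowest in every library. Both kinds of totals still held the contacts of the quadrants left out. This raises the expectation for chromosomes with joins, chromosome 3 among them, and lowers their levels. Whether the pairs of chromosome 3 stay lowest with totals free of those contacts was not tested.

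**Figure D3:**
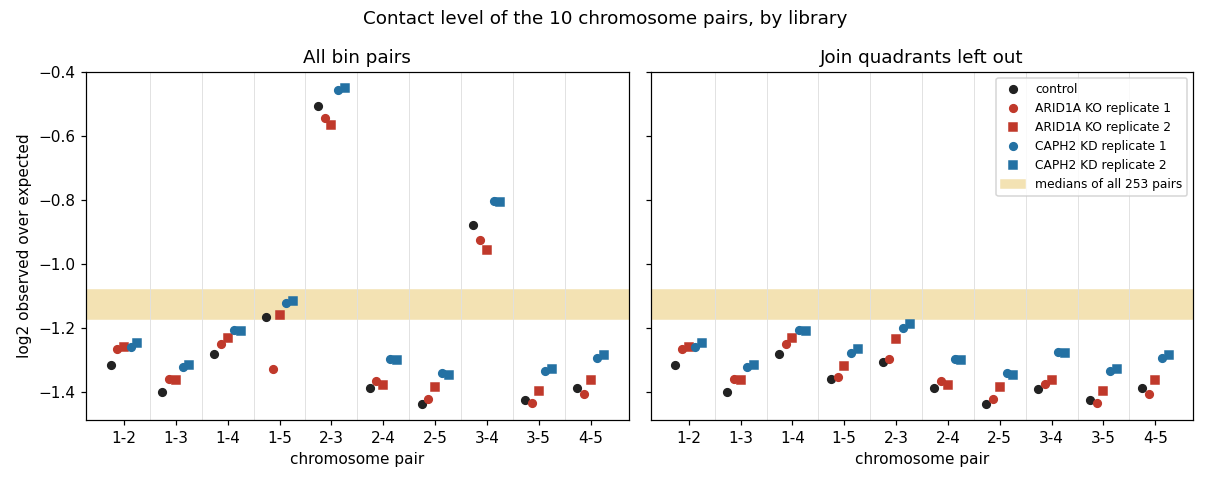
Level of each of the 10 chromosome pairs (log2 observed over expected, vertical axis) in the 5 libraries, over all bin pairs (left) and without the join quadrants (right); the band spans the 5 libraries' medians over all chromosome pairs. Chromosomes 2 and 3 fall from -0.50 to -1.30 in the control when the quadrants are left out. All 10 pairs then lie below the band in the control on these totals, which count contacts within a chromosome and those of the quadrants left out.

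The share of each chromosome's trans signal that went to the other 4 large chromosomes differed between chromosomes more than between libraries. It was highest for chromosome 3, at 36.4% in the control, 36.5% and 35.2% in the KO and 36.3% in both KD libraries, where 31.8% of the bins outside chromosome 3 lie on the other 4. Chromosome 2 had 35.0% in the control, 34.7% and 34.1% in the KO and 34.8% and 34.9% in the KD, against 30.7% of the bins. Chromosome 4 had 33.9% in the control, 33.8% and 33.2% in the KO and 33.92% and 33.95% in the KD, against 32.0% of the bins. Chromosomes 2, 3 and 4, which take part in a join in all libraries, stood above their share of bins. These shares count the contacts of the joins themselves, and shares without the join quadrants were not taken. Chromosome 5, at 31.65% in the control, 31.2% and 31.6% in the KO and 31.5% and 31.6% in the KD, was close to its 32.3% of the bins. Chromosome 1 was below its 31.1% of the bins in all libraries, at 29.9% in the control, 30.3% and 30.2% in the KO and 29.5% and 29.6% in the KD.

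The first comparison asked whether trans contacts among the large chromosomes differ when ARID1A is absent. No chromosome pair among the 10 passed the test for KO against control (limma, Benjamini-Hochberg adjusted p, 0 of 10; 0% of all chromosome pairs), and none had an unadjusted p under 0.05, against 18.6% of all pairs. Both KO libraries were higher than the control in 5 of the 10 pairs (48.2% of all pairs) and lower in 2 (19% of all), namely 2 and 3 and 3 and 4. The smallest adjusted p belonged to chromosomes 3 and 4 (difference -0.06, SE 0.02, limma adjusted p = 0.305) and chromosomes 1 and 2 (difference 0.05, SE 0.02, limma adjusted p = 0.305). The median difference was 0.01 over the 10 pairs and 0.03 over all pairs. Without the join quadrants all 10 differences were above 0, with a median of 0.03, so the 3 pairs with joins changed sign. With contacts inside a bin counted in the totals all 10 were below 0 (median -0.05), so the direction rests on the totals used. Without KO replicate 1 the fit called 8 pairs, and without KO replicate 2 it called 6; with 1 KO library the spread rests on the KD pair, whose median SD over all pairs is 0.00548 against 0.0487 in the KO.

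Finer features gave no call for KO against control either. Of 40 arm pairs none was called (0.125% of all 802), and none had an unadjusted p under 0.05; the smallest p fell to 3q with 4q (difference -0.11, SE 0.05, limma adjusted p = 0.371), whose difference was 0.04 without the join quadrants. Without KO replicate 1 and without KO replicate 2 the count was 16 each. Of 4232 block pairs of 10 Mb none was called (0% of all 39286), and 3.97% had an unadjusted p under 0.05, against 6.80% of all. The smallest p fell to chr1:1-10000000 with chr4:50000001-60000000, at -1.77 in the control, against -1.17 and -1.15 in the KO (difference 0.62, SE 0.12, limma adjusted p = 0.539). The KD libraries, at -1.58 and -1.50, lay between. Next came chr1:190000001-200000000 with chr2:90000001-100000000 (difference 0.58) and chr3:30000001-40000000 with chr4:50000001-60000000 (difference 0.49), where both KO libraries also lay above the KD and the KD above the control. In all 3 block pairs 1 block lies next to a centromere gap. Leaving out KO replicate 1 or 2 gave 118 or 223 calls among the block pairs.

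The second comparison asked the same of CAPH2 knockdown. All 10 pairs were higher in both KD libraries than in the control, as were 97.2% of all chromosome pairs, and none passed the test (limma adjusted p, 0 of 10; 0% of all chromosome pairs). The median difference was 0.08 over the members and 0.09 over all pairs, and 7 of the 10 had an unadjusted p under 0.05 (38.7% of all pairs). Chromosomes 2 and 4 had the smallest p (difference 0.09, SE 0.02, limma adjusted p = 0.103), and chromosomes 4 and 5 the largest difference (0.10, SE 0.03, limma adjusted p = 0.111). With totals from trans signal alone, 6 of the 10 pairs were higher in both KD libraries and 4 lower, against 47% and 39.1% of all pairs, and the median difference was 0.01. Leaving out either KO replicate, which leaves the KD pair to give most of the spread, turned all 10 into calls. No arm pair was called (limma, 0% of all 802; 10 of 40 at an unadjusted p under 0.05; 37 without KO replicate 1 and 37 without KO replicate 2). No block pair was called (limma, 0% of all 39286; 138 of 4232 at an unadjusted p under 0.05; 3 without KO replicate 1 and 3 without KO replicate 2).

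The block pairs with the smallest p for KD against control all had a block next to a centromere gap. They were chr2:100000001-110000000 with chr4:50000001-60000000, at -1.15 in the control, against -0.52 and -0.58 in the KD (difference 0.59, SE 0.13, limma adjusted p = 0.878), chr2:90000001-100000000 with chr5:30000001-40000000 (difference 0.74) and chr2:90000001-100000000 with chr5:50000001-60000000 (difference 0.88). In the last the control stood at -1.24, the KO libraries at -1.08 and -0.57 and the KD libraries at -0.46 and -0.25. KO replicate 2 lay nearer to the KD than to the control there, and KO replicate 1 nearer to the control.

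KO and KD libraries were then compared with each other, a test with 2 libraries on each side. Of the 10 pairs, 2 were called and both were lower in the KO (limma, adjusted p under 0.05; 14.6% of all chromosome pairs were called, 13% lower and 1.58% higher). They were chromosomes 3 and 4 (difference -0.13, SE 0.02, limma adjusted p = 0.0320) and chromosomes 2 and 3 (difference -0.10, SE 0.02, limma adjusted p = 0.0483), the 2 pairs with joins in all libraries. The share called lower was 20% of the members, against a background of 13%. Without the join quadrants neither was called, at -0.09 for 3 and 4 (limma adjusted p = 0.0556) and -0.07 for 2 and 3 (limma adjusted p = 0.154), and all 10 differences stayed below 0. With trans totals none was called and 4 of the 10 differences lay above 0 (median -0.02). In recovered contacts none was called and 6 lay above 0 (median 0.01), though 3 and 4 and 2 and 3 stayed below 0 in both settings. With contacts inside a bin in the totals 9 were called; leaving out KO replicate 1 or KO replicate 2 gave 9, and without KD replicate 1 or without KD replicate 2 it was 0. Among arm pairs 2 of 40 were called, both lower in the KO (12.6% of all 802 were called, 11% lower): the short arm of 2 with the long arm of 3 (-0.50 in the control, -0.60 and -0.56 in the KO, -0.40 in both KD libraries; difference -0.18, SE 0.03, limma adjusted p = 0.0294) and the short arm of 3 with the long arm of 4 (difference -0.14, SE 0.03, limma adjusted p = 0.0429). Both hold part of a join quadrant, and neither was called without the quadrants. Leaving out 1 library gave from 0 (without KD replicate 1 or 2) to 29 called arm pairs (without KO replicate 2; 27 without KO replicate 1). No block pair was called (0.127% of all 39286, all lower in the KO; 500 of the 4232 members at an unadjusted p under 0.05 and, adjusted, 430 without KO replicate 1 and 871 without KO replicate 2).

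Contacts of like compartment exceeded contacts between A and B in all 10 pairs and all libraries. For chromosomes 1 to 5, A and B were the sign of the first eigenvector of the chromosome's cis contacts, averaged over libraries and turned so that A goes with a higher share of trans signal; A bins made up from 28.7% of chromosome 3 to 45.7% of chromosome 1. Outside the join quadrants, with totals from trans signal alone, B-B contacts of the members stood at 0.17 in the control, 0.14 and 0.18 in the KO and 0.20 in both KD libraries (log2). A-A contacts stood at 0.10 in the control, 0.08 and 0.09 in the KO and 0.12 in both KD libraries. A-B contacts stood at -0.35 in the control, -0.26 and -0.30 in the KO and -0.37 and -0.36 in the KD. The contrast, the mean of A-A and B-B minus A-B, was 0.48 in the control, 0.37 and 0.43 in the KO and 0.53 in both KD libraries. The KO libraries thus lay below the control and the KD libraries above it, with no overlap. All other trans pairs, with strong bin pairs and their surroundings left out, stood in the same order. Their contrast was 0.43 in the control, 0.34 and 0.37 in the KO and 0.47 in both KD libraries. These other pairs include those of a large chromosome with a smaller one, so they share bins with the members. Of the other chromosomes only 17 was split by another eigenvector, the second. Like compartments did not exceed A-B in 21 or 22 of its 22 pairs, depending on the library, while they did in all pairs without it. The contrast of all other trans pairs includes those of chromosome 17. With 2 against 2 libraries an exact permutation test cannot give a p under 0.333.

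The order held in single chromosome pairs. Both KO libraries had a contrast under that of the control in 10 of the 10 pairs (84.6% of all chromosome pairs) and both KD libraries a contrast over it in 10 of 10 (73.1% of all). Without the pairs of chromosome 17, a background chosen after seeing the data, these shares were 91.3% and 78.8%. Chromosomes 1 and 2 had the highest contrast in the control at 0.54, with 0.42 and 0.47 in the KO and 0.57 and 0.58 in the KD. Chromosomes 2 and 3 had the lowest, at 0.36, with 0.29 and 0.34 in the KO and 0.36 and 0.40 in the KD. KO replicate 1 was the lowest library in all 10 pairs, which gives the KO its SD of 0.04 on the pooled contrast (n = 2). These members share libraries and bins, so the count over pairs is not a test.

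**Figure D4:**
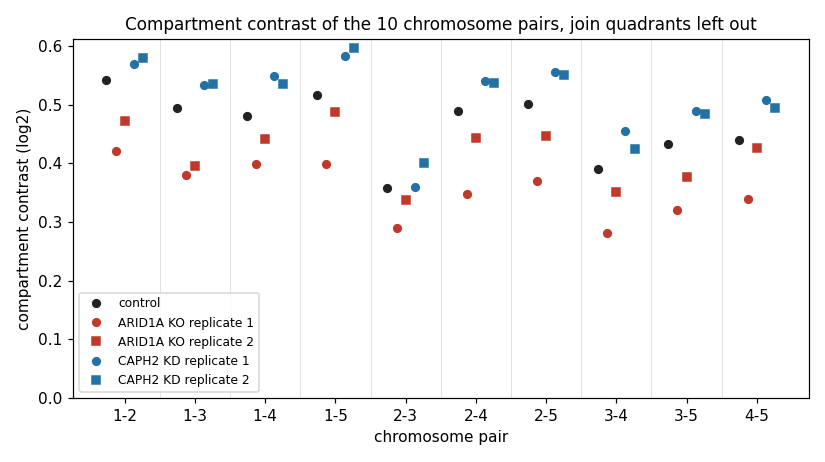
Compartment contrast of the 10 chromosome pairs (mean log2 level of like compartments, A-A and B-B, less that of A-B, trans totals, join quadrants left out) in the 5 libraries. In each pair both ARID1A KO libraries lie below the control and both CAPH2 KD libraries above it, as in chromosomes 1 and 2, where the control stands at 0.54.

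Tested class by class, B-B contacts differed between KO and KD. Of the 30 compartment classes of the members (A-A, A-B and B-B in 10 pairs), 9 were called for KO against KD, all lower in the KO (limma adjusted p under 0.05; 24.4% of all 759 classes were called, 22.1% lower and 2.24% higher), and all 9 were B-B (46.2% of all B-B classes were called lower, and 48.9% without chromosome 17). The B-B class of chromosomes 3 and 4 differed most, at -0.78 in the control, -0.89 and -0.91 in the KO and -0.69 and -0.70 in the KD (difference -0.20, SE 0.03, limma adjusted p = 0.0230). That of chromosomes 2 and 4, which have no join, was at -1.37, at -1.43 and -1.44, and at -1.25 in both KD libraries (difference -0.19, SE 0.02, limma adjusted p = 0.0231). The KO libraries lay below and the KD libraries above the control in both. The B-B classes of chromosomes 2 and 3, 1 and 4 and 3 and 5 followed (differences -0.16, -0.14 and -0.16; limma adjusted p from 0.0294 to 0.0308). The 9 calls came out the same in number without the join quadrants. They fell on another class when the level was set by trans signal alone: A-B was then called higher in the KO in 5 pairs, A-A lower in 3 and B-B lower in 2. With each library's median subtracted 4 classes were called, all higher (A-B in 3, A-A in 1), and without KD replicate 1 or 2 none was; the fit called 22 when KO replicate 1 was left out and 26 when KO replicate 2 was. The median B-B difference of the 10 pairs was below 0 under each of these scalings, at -0.16 as reported, -0.06 with trans totals, -0.05 with medians subtracted and -0.01 in recovered contacts, where 4 of the 10 lay above 0. As reported, the median was -0.158 over the members and -0.157 over the B-B classes of all chromosome pairs, so its size was not particular to the members.

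Against the control no class passed the test in either comparison (limma, 0 of 30; 0% of all 759 classes in both), while 4 classes had an unadjusted p under 0.05 for the KO and 7 for the KD. All 10 B-B classes were lower in the KO (median difference -0.04, against -0.03 over the B-B classes of all chromosome pairs) and higher in the KD (median 0.12, the same over all). The KD median came down to 0.03 with trans totals, where 9 of the 10 were higher, and to 0.000513 with library medians subtracted, where 5 were higher and 5 lower. The KO direction rests on the balanced signal, since in recovered contacts all 10 were higher in the KO (median 0.07). A-B classes had a median difference of 0.08 in the KO, again the same as over all, with chromosomes 1 and 2 at -1.58 in the control, -1.46 and -1.48 in the KO and -1.54 in both KD libraries (difference 0.11, SE 0.03, limma adjusted p = 0.214). Without KO replicate 1 the fit called 20 classes for the KO and 27 for the KD, and without KO replicate 2 it called 17 and 27. The A-A class of chromosomes 1 and 5 showed the missing join: it stood at -0.26 in the control, -0.27 in KO replicate 2, -0.24 and -0.22 in the KD and -0.73 in KO replicate 1.

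Contacts between the regions next to the centromeres lay higher in both CAPH2 KD libraries than in the control, with no class past the test. Bins were classed by position, as chromosome end (the outer 10 Mb), centromere (within 10 Mb of the centromere gap on either side) or interior. This class was set after the data had been seen. With trans totals and without the join quadrants, centromere with centromere stood at 0.21 in the control (log2 observed over expected), 0.15 and 0.29 in the KO and 0.37 and 0.38 in the KD, over 3762 member bin pairs. Both KD libraries lay above all others, and the KO libraries lay on either side of the control. End with centromere stood at -0.25 in the control, -0.21 and -0.25 in the KO and -0.33 and -0.34 in the KD. End with end stood at 0.10 in the control, 0.09 and 0.16 in the KO and 0.12 and 0.13 in the KD, where the groups overlap in range. Centromeres met centromeres, and ends met ends, more than ends met centromeres in all libraries. All other trans pairs, again with strong bin pairs and their surroundings left out, gave 0.27 for centromere with centromere in the control. They gave 0.18 and 0.31 in the KO and 0.41 and 0.40 in the KD, and they include pairs of a large chromosome with a smaller one.

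Each chromosome pair was then looked at alone, on trans totals and with the join quadrants kept. Those quadrants hold no bin pair of centromere with centromere, but they do hold bin pairs of the other classes. Centromere with centromere exceeded the control in both KD libraries in 10 of 10 pairs (86.3% of the 153 chromosome pairs with such a class), and did so in both KO libraries in 2 of 10 (17% of all). Chromosomes 3 and 5 had the highest level in the control and both KD libraries, but not in the KO, at 0.51 in the control, 0.27 and 0.50 in the KO and 0.70 in both KD libraries. Chromosomes 3 and 4 stood at 0.39, at 0.15 and 0.55 in the KO, and at 0.60 and 0.64 in the KD. Chromosomes 1 and 3 were the only pair below 0 in the control, at -0.19, with 0.07 and -0.08 in the KO and -0.09 in both KD libraries. KO replicate 1 was below KO replicate 2 in 7 of these 10 pairs, level with it in chromosomes 1 and 4 and above it in chromosomes 1 and 3 and 1 and 5. End with centromere was lower than the control in both KD libraries in 10 of 10 pairs (71.2% of all), and centromere with interior in 10 of 10 (56% of all). These last 2 directions hold for trans totals: on totals without the diagonal, end with centromere was lower in both KD libraries in 3 pairs and higher in 3, and centromere with interior was higher in 9, while centromere with centromere was again higher in 10.

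No position class among the members passed the test (limma, 0 of 60 in each of the 3 comparisons; 0% of all 1398 classes in each), and 3 had an unadjusted p under 0.05 for the KD against the control, 1 for the KO and 8 for KO against KD. The smallest p for the KD belonged to centromere with centromere of chromosomes 1 and 3, at -1.38 in the control and -1.13 in both KD libraries on totals without the diagonal (difference 0.25, SE 0.04, limma adjusted p = 0.376). Next were chromosomes 1 and 5 (difference 0.18, SE 0.05, limma adjusted p = 0.376). The median difference of the 10 was 0.34, against 0.30 over all 153. Without KO replicate 1 or without KO replicate 2 the fit called 29 of the 60 for the KD, for the KO 19 and 10, and for KO against KD 15 and 35.

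**Figure D5:**
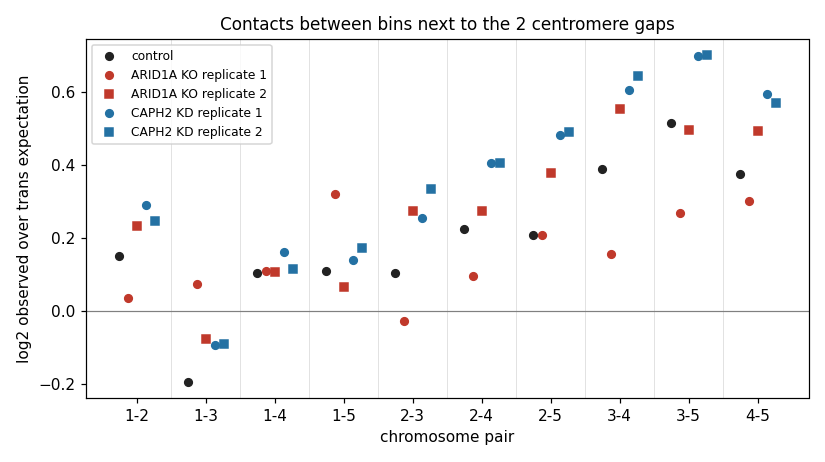
Level of contacts between the bins within 10 Mb of the 2 centromere gaps (log2 observed over the trans expectation, vertical axis) for the 10 chromosome pairs in the 5 libraries. Both CAPH2 KD libraries lie above the control in all 10 pairs, as in chromosomes 3 and 5, where the control stands at 0.51 and both KD libraries at 0.70.

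The last measure followed single bins: log2 of a bin's trans signal with chromosomes 1 to 5 over that with all other chromosomes, for the 1016 bins of chromosomes 1 to 5. The 3 highest bins in the control lay just below the join of chromosome 3, chr3:167000001-168000000 at 0.61 in the control, 0.46 and 0.53 in the KO and 0.50 and 0.51 in the KD, then chr3:164000001-165000000 and chr3:163000001-164000000. The 3 lowest were chr3:49000001-50000000, at -1.97 in the control, -1.74 and -1.86 in the KO and -1.96 and -1.95 in the KD, chr1:146000001-147000000 and chr3:50000001-51000000. For KO against KD 3 bins of chromosome 1 were called, all higher in the KO (limma adjusted p under 0.05; 1.84% of all 2779 bins were called, 0.216% higher and 1.62% lower). The bin chr1:37000001-38000000 stood at -1.55 in the control, -1.34 in both KO libraries and -1.58 and -1.61 in the KD (difference 0.26, SE 0.04, limma adjusted p = 0.0311). Those at chr1:34000001-35000000 and chr1:208000001-209000000 differed by 0.24 each (limma adjusted p = 0.0428 and 0.0434). In all 3 the KO libraries lay above the control and the KD libraries below it. In recovered contacts 2 bins were called, both lower, so these calls rest on the balanced signal; the fit called 239 when KO replicate 1 was left out and 353 when KO replicate 2 was, and 0 without KD replicate 1 or 2.

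Against the control no bin passed the test for the KO or the KD (limma, 0 of 1016; 0% of all 2779 in both), with 83 and 37 bins at an unadjusted p under 0.05. The bin with the smallest p for the KO was chr5:70000001-71000000, at -0.81 in the control, -1.27 and -1.18 in the KO and -0.983 and -0.995 in the KD (difference -0.41, SE 0.06, limma adjusted p = 0.0688). The second was chr3:147000001-148000000 (difference -0.27), which also holds the lone strong bin pair with chromosome 4. The first, chr5:70000001-71000000, was poorly covered. Its recovered contacts, relative to the library's median bin, ran from 0.237 (KO replicate 1) to 0.271 (KO replicate 2). The other libraries lay between. A bin needed a total of at least 0.25 of the control's median to be kept, so this one lay close to that limit. Without KO replicate 1 the count for the KO was 152, without KO replicate 2 it was 147, and without KD replicate 1 or 2 it was 1.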

How the data were processed

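Per the submitters' processing notes, reads were aligned with Bowtie2 to hg19. For filtering, binning and balancing, no program is named in the labels or file headers. Each library's deposited signal is a symmetric matrix of contact signal between 1 Mb bins, balanced by the authors as read from the values (row sums within 0.1% of the median for 94.9% to 96.5% of measured bins). Balancing evens out each bin's total, so a region gained or lost in copies changes its apparent contacts elsewhere. Contacts before balancing were recovered from the steps between low values and were whole within 0.05 for 98.1% to 99.2% of values; a factor too small by a whole divisor would not show.

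Of 2811 bins measured in all libraries, 2779 had at least 0.25 of the control's median total. log2 observed over expected signal was tested with limma 3.58.1 (lmFit, eBayes, R 4.3.3), all 5 libraries in 1 fit, Benjamini-Hochberg over each whole family; the control has 1 library, so spread comes from the KO and KD. Families were chromosome pairs, arm pairs, pairs of 10 Mb blocks, compartment classes and the large-chromosome share of bins; position classes and the removal of join quadrants were added after seeing the data. Where join quadrants were left out, the totals behind the expectation still held their contacts. The fit and the expectation were tested on simulated data. The named features were all 10 chromosome pairs, the 3 highest and 3 lowest of a family in the control and, per comparison, up to 5 called with the smallest p, or 3 where none was called; the text gives the leading ones. The members and lists were chosen with earlier results of these data known. No hg19 genome or annotation was used, so genes and sequences at the joins are not given. Alternatives are in the closing section. Tables were made with pandas 2.3.3 and numpy 2.4.6 under Python 3.11.15, intervals with scipy 1.17.1 and figures with matplotlib 3.10.9.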

Additional observations from a re-analysis of the deposited data

How the results depend on the processing

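Calls among the members depended on which library gave the spread. Leaving out 1 library at a time gave, for the KO against the control, 0 to 8 chromosome pairs, 0 to 16 arm pairs, 0 to 223 block pairs, 0 to 20 compartment classes, 1 to 152 bins and 0 to 19 position classes. For the KD against the control it gave 0 to 10, 0 to 37, 0 to 3, 0 to 27, 0 and 0 to 29, and for KO against KD 0 to 9, 0 to 29, 0 to 871, 0 to 26, 0 to 353 and 0 to 35. The compartment contrast then differed from the control by -0.112 to -0.0504 in the KO and by 0.0476 to 0.048 in the KD, and the centromere level by -0.0551 to 0.0842 and by 0.164 to 0.169.

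For KO against KD, the 2 chromosome pairs and 2 arm pairs became 1 and 1 with bins at 0.5 of the median, 0 and 0 without the join quadrants, 0 and 1 with library medians subtracted, 0 and 0 in recovered contacts, 0 and 1 with trans totals, and 9 and 27 with the diagonal in the totals. The count of called compartment classes, 9 (all B-B, lower), was 4 with medians subtracted (other classes, A-B or A-A, all higher), 5 in recovered contacts (A-A, lower) and 16 with the diagonal (6 A-A and 10 B-B, lower). The count of called bins, 3, was 7 without the join quadrants, 6 without strong bin pairs, 3 with medians subtracted (1 higher and 2 lower) and 2 in recovered contacts (both lower). Position classes rose from 0 to 10 with the diagonal, and bins for the KO against the control from 0 to 1 in recovered contacts. The cause was not tested.

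Replicate numbers did not pair the samples (correlation of same-number deviations 0.0296 over chromosome pairs and -0.00763 over block pairs). With the replicate block, KO against KD gave 0 chromosome pairs, 3 block pairs, 4 compartment classes, 33 bins and 2 position classes, and the KO against the control gave 1 compartment class and 14 bins.

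The KD contrast above the control, 0.0478, became 0.0364 with the join quadrants kept, 0.0423 without strong bin pairs, 0.0473 on totals without the diagonal, 0.0472 with it, 0.046 in recovered contacts, 0.0465 with bins at 0.5 of the median and 0.0434 with the control's eigenvector. The KD centromere level, 0.167 above the control, became 0.315 on totals without the diagonal, 0.305 with it and 0.189 in recovered contacts. The KO centromere level, 0.0145 above the control, turned to -0.0399 with the diagonal and to -0.00197 in recovered contacts.

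Among named features, 12 differences changed sign. For the KO against the control, chromosomes 3 and 4 came to 0.0213 and 2 and 3 to 0.0386 without the join quadrants, and to 0.00898 and 0.00363 in recovered contacts. Chromosomes 1 and 2 came to -0.0161 with the diagonal. Arm pairs 3q with 4q and 2p with 3q came to 0.0427 and 0.0261 without the join quadrants, and the B-B class of 3 and 4 to 0.0188 in recovered contacts. For the KD against the control, chromosomes 1 and 3 came to -0.00557 with medians subtracted. For KO against KD in recovered contacts, the B-B classes of 2 and 4 and of 1 and 4 came to 0.0012 and 0.011, and interior with interior of 4 and 5 to 0.0185. Blocks of 20 Mb gave 0 calls in all 3 comparisons, as did blocks of 10 Mb. The other totals could not be applied to the share of bins. Depth limits single bin pairs most in the KO, at 2.02 to 2.10 contacts each.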
